A study of Mus musculus with 18 samples.

Results

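The Smad genes encode the proteins that carry signals of the TGF-beta superfamily from receptors in the cell membrane to genes in the nucleus. The 8 mouse genes Smad1, Smad2, Smad3, Smad4, Smad5, Smad6, Smad7 and Smad9, the receptor-regulated, common and inhibitory Smads, were taken by name from a deposited table of read counts for 21995 genes. All 8 passed the filter on low counts, as did 18352 genes in all. Transcripts were measured by bulk RNA-seq of total RNA in cultures of mouse embryonic stem cells (ESCs), with 3 libraries in each of 6 groups: Oct1 cKO cells at differentiation days 0, 2 and 6, and parental cells at days 0, 2 and 6. Oct1 is the protein of the gene Pou2f1, which recognises an octamer of bases in DNA. Every group belongs to the same protocol, in which ESCs described as depleted, without a statement of what was removed, were plated on 0.01% gelatin and differentiated with retinoic acid, the active form of vitamin A, at a final 1.5 ug/ml. The sources used here give neither the way the allele of the Oct1 cKO line was deleted nor whether either line is 1 clone. The comparisons ask how the genes of the Smad proteins differ between the lines at each day and how their course over the days differs.

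In this pathway a ligand brings together receptors that phosphorylate a receptor-regulated Smad. Smad1, Smad5 and Smad9 are the receptor-regulated Smads of BMP signals, and Smad2 and Smad3 those of TGF-beta, activin and nodal signals. The phosphorylated protein joins Smad4, the common partner, and the complex moves to the nucleus, where it works with other DNA-binding proteins. Smad6 and Smad7 are inhibitory Smads, which occupy receptors, draw in ubiquitin ligases or compete for partners, and in many cell types they are themselves transcribed in response to the signals they restrain. In the early mouse embryo nodal and Smad2 pattern the epiblast, BMP and its Smads are needed for mesoderm, and in cultured mouse ESCs BMP can help to hold the undifferentiated state through the Id genes.

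Promoter windows from RefSeq (assembly GRCm38.p6, from 250 bases before to 50 bases after a transcription start) were matched by symbol for 5 of the 8 members, namely Smad1, Smad3, Smad5, Smad6 and Smad9, with 7 windows in all. The windows of Smad3, Smad6 and Smad9 are printed because these genes, of those with a window, were the furthest below parental cells in Oct1 cKO cells at day 6. The Smad3 window is chr9:63757945-63758244 on the minus strand, that of Smad6 is chr9:64022010-64022309 on the minus strand, and that of Smad9 is chr3:54755332-54755631 on the plus strand. Each is written 5′ to 3′ along the gene, and capitals mark a motif match.
Smad3: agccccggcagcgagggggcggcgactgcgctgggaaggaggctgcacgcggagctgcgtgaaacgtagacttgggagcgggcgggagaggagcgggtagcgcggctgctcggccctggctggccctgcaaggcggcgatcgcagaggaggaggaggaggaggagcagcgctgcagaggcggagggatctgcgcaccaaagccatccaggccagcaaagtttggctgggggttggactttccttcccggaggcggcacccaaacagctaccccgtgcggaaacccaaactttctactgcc
Smad6: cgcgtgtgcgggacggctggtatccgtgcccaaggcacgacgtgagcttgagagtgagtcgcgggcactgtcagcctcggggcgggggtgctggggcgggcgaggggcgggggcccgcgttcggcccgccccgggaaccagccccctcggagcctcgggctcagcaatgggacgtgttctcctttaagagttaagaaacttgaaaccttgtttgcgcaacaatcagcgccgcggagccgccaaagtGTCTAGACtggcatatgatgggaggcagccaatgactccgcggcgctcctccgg
Smad9: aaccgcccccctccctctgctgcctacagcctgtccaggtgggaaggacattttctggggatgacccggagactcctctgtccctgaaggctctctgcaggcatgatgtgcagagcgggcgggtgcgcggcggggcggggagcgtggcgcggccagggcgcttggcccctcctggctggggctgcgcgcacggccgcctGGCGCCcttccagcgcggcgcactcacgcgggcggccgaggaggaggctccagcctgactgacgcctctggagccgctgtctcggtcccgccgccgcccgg

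All 7 windows were searched on both strands for 4 motifs that do not contain one another. These were the octamer ATGCAAAT, the Smad palindrome GTCTAGAC, the GC-rich Smad element GGCGCC and AGGTCA, a part of nuclear receptor elements. The capitals in Smad6 mark GTCTAGAC from position -4 to 4 around the transcription start, and 0.213% of 32851 RefSeq windows of the same length hold these letters. The capitals in Smad9 mark GGCGCC from position -51 to -46, which 11.9% of windows hold. The Smad3 window has no capitals because none of the 4 motifs is in it. Of the windows not printed, 2 overlapping ones of Smad5 hold the same GGCGCC, and the Smad1 window holds none of the 4. The octamer, found in 1.74% of all windows, is in none of the 7, and neither is AGGTCA, found in 16.3%. Guanine and cytosine make up 67.7% of the Smad3 window, 66.3% of the Smad6 window and 73.7% of the Smad9 window, against a median of 52.7% over all windows. These are matches of letters in short windows and say nothing about binding.

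Depth ran from 13694126 to 19296966 counts per library. Pou2f1 had 36 to 88.2 CPM (the read count relative to the size of the library, scaled here by TMM factors that make libraries comparable) over the 9 Oct1 cKO libraries and 61.1 to 135 CPM over the 9 parental libraries. It was lower in Oct1 cKO at each day, with log2 fold changes of -0.70, -0.78 and -0.60 at days 0, 2 and 6, but reads of the gene remained, and the counts do not show over which exons. Replicate 3 of Oct1 cKO day 0 stood apart: a chi-square statistic of its counts per degree of freedom was 10.8 and 10.4 against its fellow replicates, which differed from each other by 1.22. Separate cultures for the libraries of a group are not stated in the labels, and p-values therefore measure a spread between libraries that may be technical.

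Markers of cell types moved with the groups. At day 0 the 8 pluripotency markers summed to 7940 to 8840 CPM in Oct1 cKO and 6920 to 7060 CPM in parental libraries, and the 10 fibroblast (feeder cell) markers to 369 to 383 CPM in Oct1 cKO and 1180 to 1250 CPM in parental libraries. Of the 8 pluripotency genes, 2 were called higher at day 0 and 6 were not called. Pou5f1 averaged 1520 CPM in Oct1 cKO and 893 CPM in parental cells, while Sox2 averaged 442 CPM in Oct1 cKO and 456 CPM in parental cells. At day 2 the pluripotency sums were 2830 to 2970 CPM in Oct1 cKO and 1210 to 1270 CPM in parental libraries, and all 8 of these genes were higher in Oct1 cKO. At day 6 the pluripotency sums were 172 to 180 CPM in Oct1 cKO and 31 to 31.5 CPM in parental libraries, with 6 of the 8 genes higher and 1 lower in Oct1 cKO. Nanog went against the sum, at 0.342 CPM in Oct1 cKO and 1.34 CPM in parental cells. The fibroblast sums were 124 to 154 CPM in Oct1 cKO and 210 to 226 CPM in parental libraries at day 2. Of the 10 fibroblast genes, 5 were lower in Oct1 cKO at day 2, 2 were higher and 3 were not called. At day 6 the fibroblast sums were 498 to 600 CPM in Oct1 cKO and 4060 to 4360 CPM in parental libraries, with 8 of 10 genes lower and 1 higher in Oct1 cKO. The 7 extraembryonic endoderm markers summed to 230 to 262 CPM in Oct1 cKO and 169 to 171 CPM in parental libraries at day 0, with 3 higher. At day 2 these sums were 1200 to 1340 CPM in Oct1 cKO and 688 to 740 CPM in parental libraries, with 4 higher and 1 lower. At day 6 the endoderm sums were 5850 to 6410 CPM in Oct1 cKO and 3510 to 3650 CPM in parental libraries. Of these 7, 6 were higher and 1 lower, with Lama1 (2440 CPM in Oct1 cKO and 1440 CPM in parental cells) and Lamb1 (3120 CPM in Oct1 cKO and 1550 CPM in parental cells) making most of the sum and Gata6 lower (68 CPM in Oct1 cKO and 304 CPM in parental cells). The 6 neural markers summed to 103 to 116 CPM in Oct1 cKO and 92.1 to 96.8 CPM in parental libraries at day 0, with 2 higher and 2 lower. At day 2 these sums were 22.4 to 24.9 CPM in Oct1 cKO and 41.6 to 45.1 CPM in parental libraries, with 1 higher and 4 lower. At day 6 the neural sums were 64.2 to 71.8 CPM in Oct1 cKO and 382 to 389 CPM in parental libraries, with Sox1 at 0 counts in the Oct1 cKO and 1 count in the parental libraries. Of the 6, 1 was higher and 4 lower, with Ncam1 (40.1 CPM in Oct1 cKO and 261 CPM in parental cells) and Dcx (0.769 CPM in Oct1 cKO and 105 CPM in parental cells) making most of the parental sum and Tubb3 higher (25.2 CPM in Oct1 cKO and 9.35 CPM in parental cells). Genes of chromosome 11 had a median log2 difference of -0.38, -0.37 and -0.39 at days 0, 2 and 6, while those of the chromosomes that carry Smad genes (3, 8, 9, 13 and 18) had medians of -0.05 to 0.16. The part of the markers in the results below was not tested. In bulk samples fewer cells of a type and less RNA per cell cannot be told apart.

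The pool of Smad transcripts was made up differently in the genotypes as retinoic acid treatment went on. Per length, as CPM per kilobase of exon, the 8 genes together came to 72.3 ± 2.43 in Oct1 cKO and 62.4 ± 0.855 in parental cells at day 0 (SD, n = 3 each). At day 2 the sums were 63 ± 0.812 in Oct1 cKO and 68.2 ± 2.27 in parental cells, and at day 6 they were 89 ± 2.76 in Oct1 cKO and 124 ± 1.7 in parental cells. The Oct1 cKO pool was thus the larger at day 0 and the smaller at days 2 and 6, with no overlap of the libraries at any day. Smad4 was the most abundant member per length in every group but Oct1 cKO day 0, where Smad7 led with 26.7 CPM per kilobase against 22.7 for Smad4. In CPM not divided by length, Smad2 averaged above Smad4 in Oct1 cKO at day 2 (110 and 98.2) and day 6 (136 and 127). In parental cells at day 6 Smad5 (187 CPM) and Smad3 (162 CPM) averaged above Smad4 (120 CPM). The order and shares given here thus depend on the exon lengths used. Smad9 was last in all 6 groups, between 0.13 and 2.89 CPM per kilobase.

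The order between these ends shifted. Day 0 cells of both genotypes ran from Smad4 and Smad7 down through Smad2, Smad5, Smad3, Smad1 and Smad6 to Smad9, apart from the exchange of Smad4 and Smad7, and no neighbours in the order overlapped in their 3 libraries. At day 6 Smad2 stood next to Smad4 in Oct1 cKO cells at 15.4 CPM per kilobase, ahead of Smad5 at 12.5 and Smad3 at 10.7. In parental cells at day 6 Smad3 at 29.3 and Smad5 at 25.2 stood next to Smad4, and Smad2 came after them at 10.6. Neighbours whose libraries overlapped were Smad6 and Smad7 in Oct1 cKO day 2, and, in parental cells, Smad5 with Smad2 and Smad2 with Smad3 at day 2 and Smad6 with Smad7 at days 2 and 6.

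As a share of the summed level per length at day 6, Smad2 made 17.4 ± 0.391% in Oct1 cKO and 8.5 ± 0.123% in parental cells, and Smad3 made 12 ± 0.0276% in Oct1 cKO and 23.6 ± 0.344% in parental cells. The 3 BMP Smads together made 18.2 ± 0.611% in Oct1 cKO and 28.3 ± 0.162% in parental cells at day 6. These shares did not overlap between the genotypes. The inhibitory Smads made 40 ± 2.45% in Oct1 cKO and 32.6 ± 0.734% in parental cells at day 0, but 14 ± 0.352% in Oct1 cKO and 13.5 ± 0.871% in parental cells at day 6, where the libraries overlapped. Over the 18 libraries the highest CPM was 30.8 times the lowest for Smad9, 12 times for Smad3 and 7.72 times for Smad6, but 2.01 times for Smad2 and 1.7 times for Smad4.

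**Figure D1:**
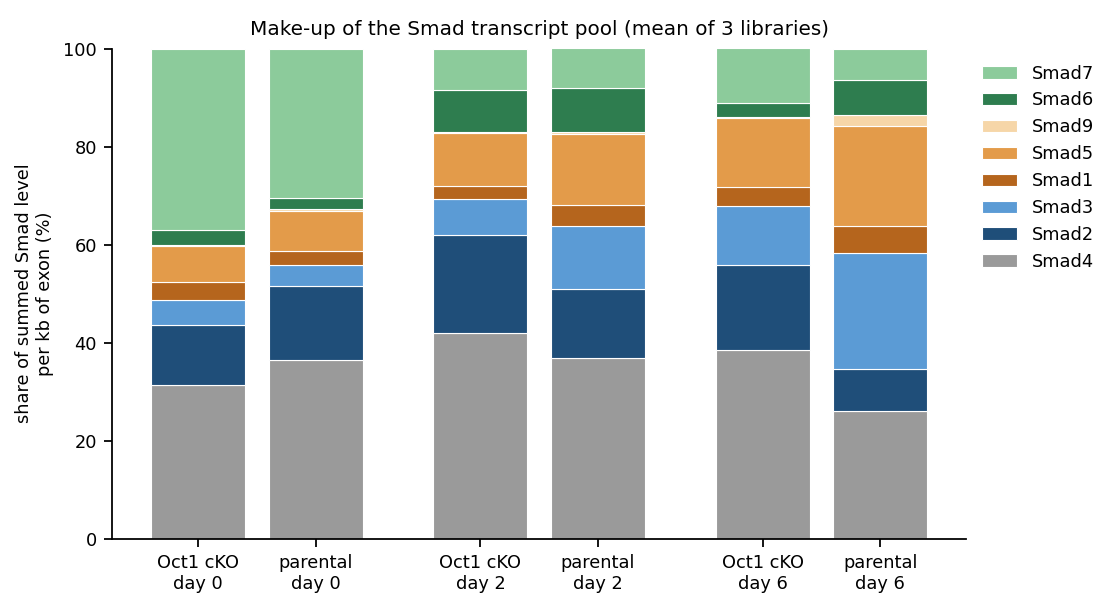
Share of each Smad gene (%) in the summed level of the 8 genes per kilobase of exon, as the mean of 3 libraries per group, with Oct1 cKO left of parental at each day. Smad7 fills 37% of the Oct1 cKO and 30.5% of the parental bar at day 0, and at day 6 the Smad2 and Smad4 segments are taller in Oct1 cKO and the Smad3 and Smad5 segments taller in parental cells.

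Counted over the family, 4 members were higher and 1 lower in Oct1 cKO than in parental cells at day 0, where 26.4% of all genes tested were called higher and 27% lower. At day 2 1 was higher and 4 lower, against 33.7% and 33.6% of all genes, and at day 6 2 were higher and 5 lower, against 36.7% and 37.8%. In either direction 53.5%, 67.3% and 74.5% of all genes were called at days 0, 2 and 6, so a call by itself does not mark out a Smad gene. The libraries of the genotypes did not overlap for 4 members that were higher and 1 that was lower in Oct1 cKO at day 0. At day 2 this held for 1 higher and 4 lower members, and at day 6 for 2 higher and 5 lower. Over all genes tested, 57.6%, 71% and 76.8% did not overlap at days 0, 2 and 6, so libraries that stand apart do not mark out a Smad gene either. The median log2 fold change of the 8 members was 0.27, -0.35 and -1.03 at days 0, 2 and 6, beside 0, -0.01 and 0 over all genes tested. A gene is called here at an adjusted p under 0.05 by the edgeR quasi-likelihood test with Benjamini-Hochberg adjustment over all genes tested, which gave every adjusted p below. Without Oct1 cKO day 0 replicate 3, Smad1, Smad3, Smad6 and Smad7 remained higher at day 0 with log2 fold changes of 0.57, 0.59, 0.60 and 0.47, and the count of members called was 4.

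Among the BMP Smads, Smad1 (ENSMUSG00000031681, chr8:79338395-79399518, minus strand, GRCm38 as are the positions below) took opposite courses at the start of treatment. At day 0 it had 16.4, 16.9 and 16.4 CPM in Oct1 cKO libraries and 11.1, 10.6 and 12 CPM in parental libraries. At day 2 it had 10.8, 10.9 and 10.4 CPM in Oct1 cKO and 20.2, 17.3 and 18.1 CPM in parental libraries. At day 6 it had 20.9, 21 and 22.6 CPM in Oct1 cKO and 46.3, 45.8 and 40.7 CPM in parental libraries. All 3 Oct1 cKO libraries lay above the parental ones at day 0 and all 3 below them at days 2 and 6. The log2 fold change of Oct1 cKO over parental was 0.56 ± 0.09 (SE, adjusted p = 1.69e-06) on day 0. It was -0.80 ± 0.09 on day 2, with an adjusted p of 1.97e-10, and -1.04 ± 0.07 on day 6, with an adjusted p of 1.32e-16. By day 2 Smad1 fell by 0.63 on the log2 scale in Oct1 cKO cells and rose by 0.73 in parental cells, and the difference between these changes was -1.36 (95% interval -1.61 to -1.11, adjusted p = 6.29e-12).

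Smad5 (ENSMUSG00000021540, chr13:56703010-56742377, plus strand), which answers to the same receptors as Smad1, rose in both genotypes and less so in Oct1 cKO. Its day 0 levels were 43.5, 40 and 35.3 CPM in Oct1 cKO and 37.6, 38.8 and 38.5 CPM in parental libraries. Its day 2 levels were 49.1, 50.4 and 50.5 CPM in Oct1 cKO and 71.8, 70.5 and 75.7 CPM in parental libraries. Its day 6 levels were 92.1, 94.9 and 91.8 CPM in Oct1 cKO and 185, 190 and 187 CPM in parental libraries. The genotypes overlapped at day 0, and from day 2 all Oct1 cKO libraries were the lower. No difference passed the test at day 0 (log2 fold change 0.04, 95% interval -0.08 to 0.17), and Smad5 was 1.45-fold lower in Oct1 cKO at day 2, with an adjusted p of 5.2e-11, and 2.01-fold lower by day 6 (log2 fold change -1.01 ± 0.05, adjusted p = 1.56e-20). Over 6 days it rose 2.35-fold in Oct1 cKO and 4.89-fold in parental cells, a log2 difference of -1.05 (adjusted p = 1.34e-14). A stretch of 100 bases, 1.35% of its exon length, overlaps the noncoding gene Gm27301 on the same strand, and reads there cannot be assigned to one or the other.

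Smad9 (ENSMUSG00000027796, chr3:54755582-54801257, plus strand), the remaining BMP Smad, had the largest log2 fold change of the 8 members at day 6. At day 0 it had 0.827, 0.706 and 0.565 CPM in Oct1 cKO and 1.69, 1.07 and 1.12 CPM in parental libraries. At day 2 it had 0.697, 0.817 and 0.669 CPM in Oct1 cKO and 1.76, 1.87 and 1.89 CPM in parental libraries. At day 6 it had 1.13, 1.22 and 0.953 CPM in Oct1 cKO libraries, from 19, 21 and 15 counts, and 14.7, 14.4 and 17.4 CPM in parental libraries, from 296, 278 and 334 counts. Oct1 cKO libraries lay below parental ones at every day, and at day 6 they were near the level of day 0 parental cells. The difference was 2.5-fold at day 2 (log2 fold change -1.32 ± 0.25, adjusted p = 1.91e-05) and 14-fold at day 6 (-3.80 ± 0.16, adjusted p = 3.33e-23). The day 0 difference of -0.89 ± 0.30 (adjusted p = 0.012) rests on 9 to 11 counts per Oct1 cKO library and did not pass the threshold without parental day 0 replicate 1 (-0.65, adjusted p = 0.115) or without Oct1 cKO day 0 replicate 3 (-0.73, adjusted p = 0.0784). After day 2 Smad9 rose 8.41-fold in parental cells, while the log2 change in Oct1 cKO was 0.59 (95% interval -0.01 to 1.19, adjusted p = 0.0649), and the changes differed by -2.48 (adjusted p = 1.25e-07).

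Smad2 and Smad3, the Smads of TGF-beta, activin and nodal, moved apart. Smad3 (ENSMUSG00000032402, chr9:63646767-63757994, minus strand) had 22.9, 21.9 and 18.6 CPM in Oct1 cKO and 14.8, 16.1 and 13.8 CPM in parental libraries at day 0. At day 2 it had 26.2, 23.7 and 27.5 CPM in Oct1 cKO and 45, 51.2 and 50.5 CPM in parental libraries. At day 6 it had 60.3, 60.1 and 56.9 CPM in Oct1 cKO and 165, 162 and 160 CPM in parental libraries. The genotypes did not overlap on any day, with Oct1 cKO the higher at day 0 and the lower afterwards, as for Smad1. The log2 fold change on day 0 was 0.49 ± 0.09 (adjusted p = 7.18e-06). That of day 2 was -0.92 ± 0.07 (adjusted p = 1.24e-14) and that of day 6 -1.46 ± 0.06 (adjusted p = 1.69e-23). Over 6 days Smad3 rose 2.82-fold in Oct1 cKO and 10.9-fold in parental cells, and these changes differed by -1.95 on the log2 scale (95% interval -2.16 to -1.74, adjusted p = 4.97e-19).

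Smad2 (ENSMUSG00000024563, chr18:76241580-76310963, plus strand) was the receptor-regulated Smad that was higher in Oct1 cKO at days 2 and 6. Its day 0 levels were 82.7, 78.3 and 69.6 CPM in Oct1 cKO and 87.1, 79.9 and 82.1 CPM in parental libraries. Its day 2 levels were 108, 111 and 111 CPM in Oct1 cKO and 84.2, 81 and 85.4 CPM in parental libraries. Its day 6 levels were 135, 140 and 132 CPM in Oct1 cKO and 92.8, 92.5 and 92.7 CPM in parental libraries. Oct1 cKO libraries were higher with each day sampled, the parental ones stayed within a narrow band, and the genotypes overlapped at day 0 alone. Smad2 was 1.32-fold higher in Oct1 cKO at day 2 (log2 fold change 0.40 ± 0.05, adjusted p = 1.53e-08) and 1.46-fold higher at day 6 (0.55 ± 0.05, adjusted p = 1.92e-12), and at day 0 the value was -0.11 (95% interval -0.22 to 0, adjusted p = 0.0773), which became a call at -0.17 (adjusted p = 0.0145) without Oct1 cKO day 0 replicate 1. The change over 6 days differed by 0.66 (adjusted p = 4.63e-10). In parental cells that change was 0.16 (adjusted p = 0.00533) and the step from day 2 to day 6 was 0.15 (adjusted p = 0.0085), and they lost their calls under 11 and 12 of 24 alternative settings, among them leaving out any 1 parental library of day 2 or day 6 or Oct1 cKO day 6 replicate 2 (values of 0.07 to 0.11). Under 1 of the 12, library sizes alone, the later step was -0.03 (adjusted p = 0.627). With DESeq2 in place of edgeR the change over 6 days in parental cells was 0.10 and the later step 0.07, both without a call.

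Smad4 (ENSMUSG00000024515, chr18:73639009-73703780, minus strand), the partner of the receptor-regulated Smads, was the member that no comparison of the genotypes called. It had 85.9, 89.3 and 77.7 CPM in Oct1 cKO and 84.1, 83.7 and 85.2 CPM in parental libraries at day 0. It had 101, 96.1 and 97.5 CPM in Oct1 cKO and 92.5, 99.1 and 89.1 CPM in parental libraries at day 2. It had 132, 129 and 121 CPM in Oct1 cKO and 123, 120 and 118 CPM in parental libraries at day 6. The genotypes overlapped at each day, and the levels were highest at day 6 in either line. The 95% intervals of the log2 fold change were -0.11 to 0.11 at day 0, -0.03 to 0.17 at day 2 and -0.02 to 0.18 at day 6. The day 6 value of 0.08 passed the threshold as higher under 7 of 24 alternative settings, among them leaving out any 1 parental library of day 2 (0.12) or parental day 6 replicate 1 (0.14), and with library sizes alone as the scale it was -0.12 (adjusted p = 0.0268). It also passed as higher with DESeq2 in place of edgeR (0.14), with DESeq2 size factors (0.15) and with no filter on low counts (0.13). Smad4 rose by 0.60 on the log2 scale over 6 days in Oct1 cKO and by 0.51 in parental cells, a difference of 0.08 (95% interval -0.07 to 0.23).

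**Figure D2:**
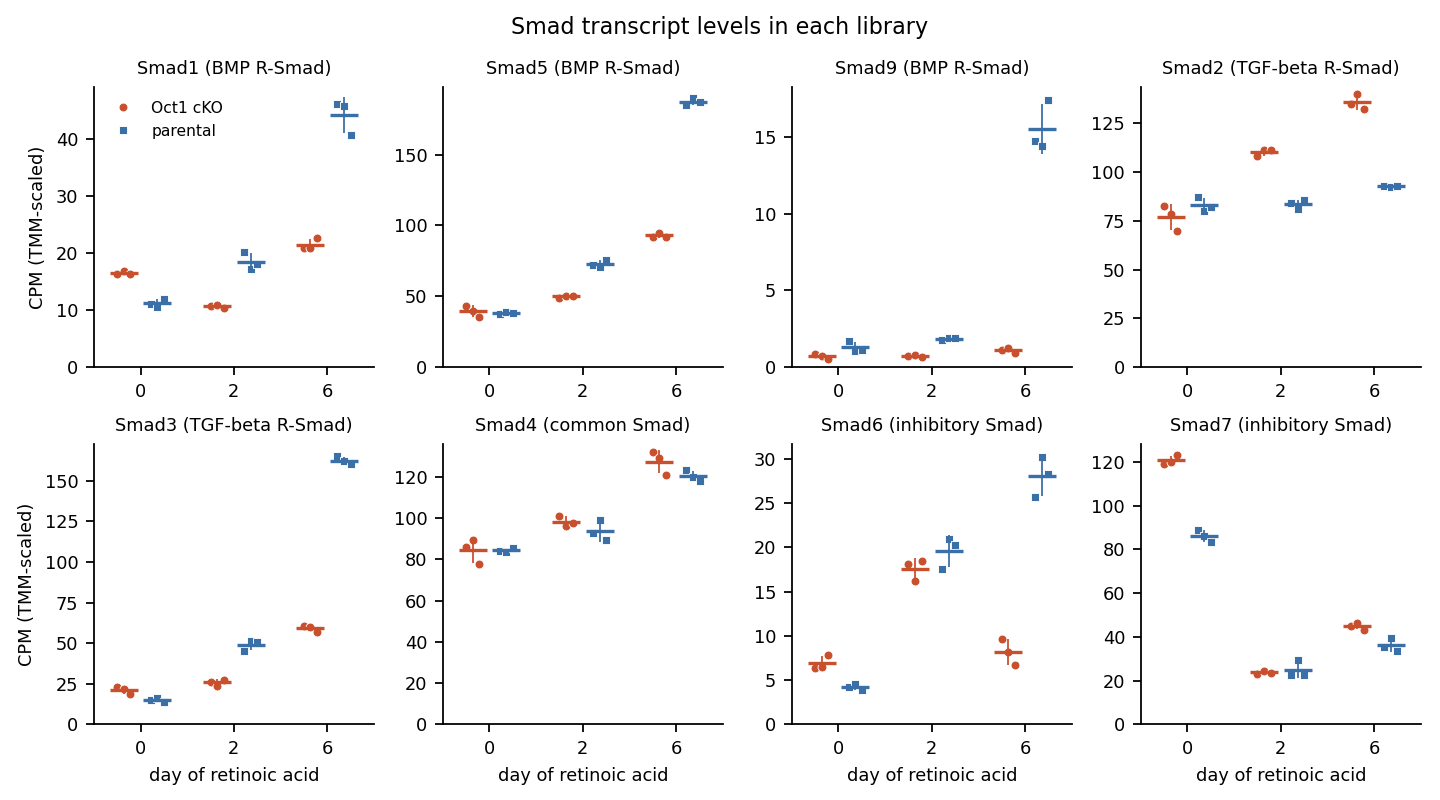
Level of each Smad gene in CPM (TMM-scaled, linear axes from 0) in every library, Oct1 cKO as circles and parental as squares at days 0, 2 and 6, with lines at the mean and bars of 1 SD over 3 libraries. Smad1, Smad3, Smad5, Smad6 and Smad9 end below parental cells at day 6, Smad2 and Smad7 above them, and the Smad4 points of the genotypes overlap at each day.

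Of the inhibitory Smads, Smad6 (ENSMUSG00000036867, chr9:63953076-64022059, minus strand), which mainly restrains BMP signals, rose in both genotypes by day 2 and then took opposite courses. Its day 0 levels were 6.39, 6.51 and 7.78 CPM in Oct1 cKO and 4.25, 4.61 and 3.91 CPM in parental libraries. Its day 2 levels were 18.1, 16.2 and 18.4 CPM in Oct1 cKO and 17.5, 20.9 and 20.3 CPM in parental libraries. Its day 6 levels were 9.59, 8.17 and 6.74 CPM in Oct1 cKO and 25.7, 30.2 and 28.3 CPM in parental libraries. Oct1 cKO libraries were the higher at day 0, overlapped with parental ones at day 2 and were all lower at day 6. The log2 fold change on day 0 was 0.70 ± 0.15 (adjusted p = 0.000137). That of day 2 was -0.15 ± 0.09 (95% interval -0.34 to 0.03, adjusted p = 0.134) and that of day 6 -1.77 ± 0.10 (adjusted p = 9.56e-19). The day 2 value was called as lower without parental day 2 replicate 1 (-0.25, adjusted p = 0.0241) and under 2 other settings. After day 2 Smad6 fell by 1.1 on the log2 scale in Oct1 cKO and rose by 0.52 in parental cells, and these changes differed by -1.62 (95% interval -1.90 to -1.34, adjusted p = 4.29e-13).

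Smad7 (ENSMUSG00000025880, chr18:75367529-75395935, plus strand), which restrains TGF-beta and BMP receptors alike, was the member that fell by day 2 in both genotypes. At day 0 it had 119, 120 and 123 CPM in Oct1 cKO and 89, 86.1 and 83.2 CPM in parental libraries. At day 2 it had 23, 24.6 and 23.7 CPM in Oct1 cKO and 22.7, 29.2 and 22.6 CPM in parental libraries. At day 6 it had 45, 46.2 and 43.3 CPM in Oct1 cKO and 35.4, 39.4 and 33.5 CPM in parental libraries. Oct1 cKO libraries lay above parental ones at days 0 and 6 and among them at day 2. The fall by day 2 was 5.08-fold in Oct1 cKO and 3.47-fold in parental cells, a log2 difference of -0.55 (adjusted p = 1.27e-05). Smad7 was 1.4-fold higher in Oct1 cKO at day 0 (log2 fold change 0.49 ± 0.06, adjusted p = 1.58e-08) and 1.24-fold higher at day 6 (0.31 ± 0.07, adjusted p = 0.000129), though with library sizes alone as the scale the day 6 value was 0.11 (adjusted p = 0.158). At day 2 the value was -0.06 (95% interval -0.22 to 0.10), and it was called as lower with library sizes alone (-0.25, adjusted p = 0.00481). At day 6 the inhibitory genes stood on opposite sides of parental cells, with Smad6 lower and Smad7 higher.

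**Figure D3:**
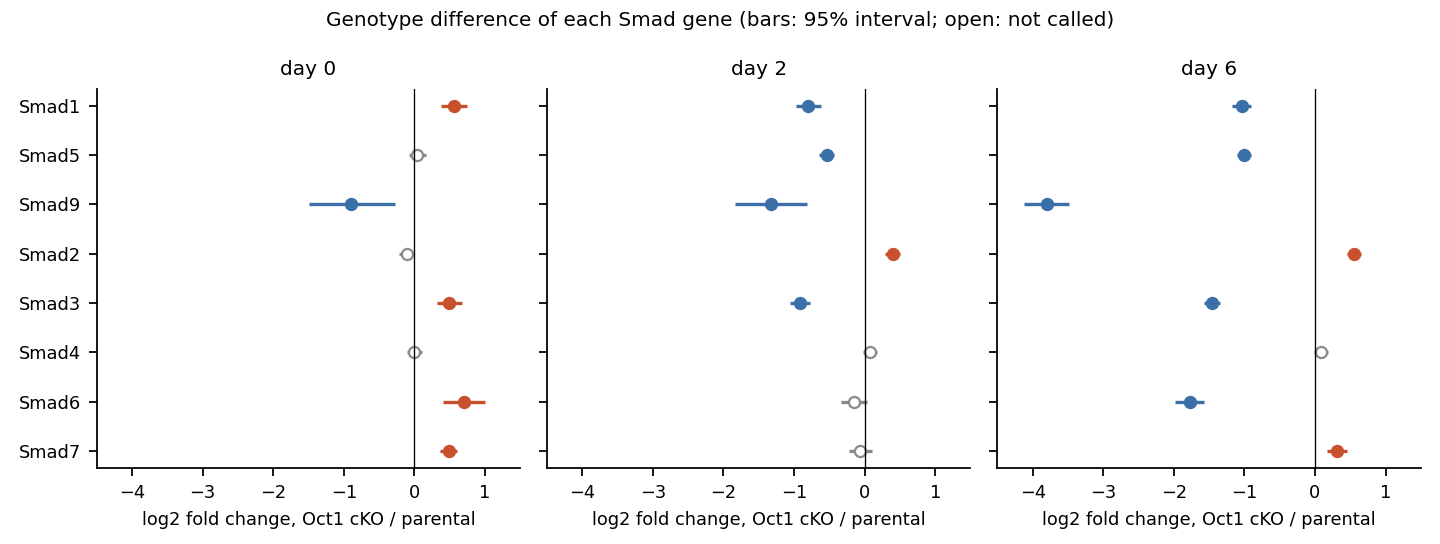
Log2 fold change of Oct1 cKO over parental for each Smad gene at days 0, 2 and 6, with 95% intervals derived from the edgeR test, filled where the adjusted p was under 0.05 and open where it was not. Points lie between -0.89 and 0.70 at day 0 and between -3.80 and 0.55 at day 6, and Smad4 lies between 0 and 0.08 in all panels.

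Within Oct1 cKO, 5 members rose and 2 fell from day 0 to day 2 (41% and 35.5% of all genes, 76.5% in all), 6 rose and 1 fell from day 2 to day 6 (39.6% and 41.6%, 81.2% in all), and 6 rose and 1 fell over the 6 days (41.4% and 40.4%, 81.8% in all). Within parental cells, 6 rose and 1 fell from day 0 to day 2 (43.2% and 37.7% of all genes, 80.8% in all), all 8 rose from day 2 to day 6 (42.6% rose and 36.9% fell, 79.6% in all), and 7 rose and 1 fell over the 6 days (45.3% and 40.2%, 85.5% in all). Smad7 was the member that fell over 6 days in either line. The median log2 change of the members over 6 days was 0.63 in Oct1 cKO and 2.13 in parental cells. Consecutive comparisons share the libraries of the day between them, and the comparison over 6 days shares its ends with the shorter steps. By day 2 in parental cells, the Smad9 rise of 0.52 (adjusted p = 0.0301) lost its call under 5 of 24 alternative settings, and the Smad4 rise of 0.15 (adjusted p = 0.00887) lost it without parental day 2 replicate 2 (0.09, adjusted p = 0.162). The Smad9 change over 6 days in Oct1 cKO (0.67, adjusted p = 0.0454) lost its call under 19 of 24 alternative settings and was 0.50 (adjusted p = 0.197) without Oct1 cKO day 0 replicate 3.

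The test of the difference between genotypes in the change over time called 1 member higher and 5 lower for day 2 against day 0 (30.1% and 26.9% of all genes, 57% in all), 1 higher and 4 lower for day 6 against day 2 (31.5% and 32%, 63.5% in all) and 1 higher and 5 lower for day 6 against day 0 (32% and 31.9%, 63.9% in all). Smad3, Smad5 and Smad6 were lower in all 3. Smad2 was the higher member over the 2 spans that begin at day 0, and Smad7 was the higher one from day 2 to day 6 with 0.37 (adjusted p = 0.00226). For day 6 against day 2 the count of members called ran from 5 to 7 over the fits that left out 1 library. There Smad2, at 0.15 (adjusted p = 0.0633), was called higher under 12 of 24 alternative settings, with 0.19 to 0.23 without any 1 parental library of day 2 or day 6, 0.14 without Oct1 cKO day 0 replicate 3 and 0.19 without Oct1 cKO day 6 replicate 2. The other calls came with all libraries of the span kept. Smad2 was 0.25 with DESeq2 in place of edgeR, 0.25 with DESeq2 size factors, 0.24 in a fit of only the libraries compared and 0.22 with no filter on low counts. Smad1, at -0.25 (adjusted p = 0.0508), was called lower under 6, with -0.26 to -0.29 where parental day 0 replicate 2 or replicate 3 of any Oct1 cKO day was left out. Smad4 was called in none of the 3, with 95% intervals of -0.08 to 0.22, -0.14 to 0.16 and -0.07 to 0.23. The median of the 8 members was -0.57, -0.36 and -1.33 for these 3 tests.

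Levels of the members were also set side by side over the 18 libraries, as a description of libraries that share groups and days. The log2 CPM of Smad3 and Smad5 had a Pearson correlation of 0.99, those of Smad1 and Smad3 one of 0.92, those of Smad2 and Smad4 one of 0.76 and those of Smad6 and Smad7 one of -0.79. The search for like genes covered 12046 genes with enough reads, and left out genes named Gm plus digits or with names ending in Rik. Among these 12046, those most like Smad3 were Hunk (0.9947), Smad5 (0.9897) and Ephb4 (0.9888). Those most like Smad9 were Slit2 (0.985), Hoxc8 (0.9837) and Rps6ka3 (0.9818), and those most like Smad7 were Eif4e2 (0.9936), Hnrnpk (0.9914) and Snx5 (0.9911). For the other members the closest were Zfp516 (0.9848) for Smad1, Spsb1 (0.9917) for Smad5, Strn (0.976) for Smad2, Slc4a9 (0.9765) for Smad4 and Zfp760 (0.9793) for Smad6. These values say that the levels went up and down over the same libraries and no more.

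Upstream of the Smads, the receptors that phosphorylate them differed in both directions. The counts of each list below stand against 26.4% of all genes called higher and 27% lower at day 0, 33.7% and 33.6% at day 2, and 36.7% and 37.8% at day 6, and against medians of 0, -0.01 and 0 over all genes. Of 6 BMP-type receptors, 0 were higher and 3 lower in Oct1 cKO at day 0, 0 and 4 at day 2, and 2 and 3 at day 6, with median log2 fold changes of -0.38, -0.41 and -0.62. Acvr1, a type I receptor that acts through Smad1 and Smad5, averaged 22.1 ± 1.87 CPM in Oct1 cKO and 52.9 ± 1.75 CPM in parental cells at day 6 (log2 fold change -1.26, adjusted p = 8.2e-19; SD, n = 3 here and below). Bmpr1b, another BMP type I receptor, averaged 0.887 ± 0.122 CPM in Oct1 cKO and 7.63 ± 0.373 CPM in parental cells (-3.10, adjusted p = 5.76e-16). Acvrl1, a type I receptor known from endothelium, lay the other way with 14 ± 0.545 CPM in Oct1 cKO and 4.32 ± 0.556 CPM in parental cells (1.70, adjusted p = 4.32e-16). At day 6 the 4 endothelial markers summed to 295 to 316 CPM in Oct1 cKO and 319 to 335 CPM in parental libraries, with 3 higher, led by Cdh5 (277 CPM in Oct1 cKO and 90.3 CPM in parental cells), and Kdr lower (12.9 CPM in Oct1 cKO and 226 CPM in parental cells), and their part in the Acvrl1 value was not tested.

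Of the 5 receptors measured for TGF-beta, activin and nodal, 1 was higher and 3 lower in Oct1 cKO at day 0, 0 and 2 at day 2, and 2 and 3 at day 6, with medians of -0.32, -0.12 and -0.31, where 53.5%, 67.3% and 74.5% of all genes were called in either direction. Tgfbr1, the TGF-beta type I receptor, averaged 79.4 ± 2.57 CPM in Oct1 cKO and 137 ± 2.89 CPM in parental cells at day 6 (-0.78, adjusted p = 1.06e-14). Tgfbr2, the TGF-beta type II receptor, averaged 36.6 ± 1.53 CPM in Oct1 cKO and 61 ± 1.68 CPM in parental cells (-0.74, adjusted p = 4.31e-12). Acvr2b, a type II receptor for activin and nodal, averaged 81 ± 2.07 CPM in Oct1 cKO and 22.8 ± 2.23 CPM in parental cells (1.83, adjusted p = 2.43e-24). Acvr1b, the type I receptor of activin and nodal, was higher in Oct1 cKO at day 0 (1.05) and day 6 (0.70). At day 6 both receptors of TGF-beta itself were thus lower, and those of activin and nodal were divided, since Acvr2a was lower at -0.31 (adjusted p = 0.000109).

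More of the enzymes that turn Smad and receptor proteins over were called higher in Oct1 cKO at days 2 and 6 than at day 0. Of 11 ubiquitin ligases and deubiquitinases, 3 were higher and 6 lower in Oct1 cKO at day 0, 7 and 1 at day 2, and 9 and 1 at day 6, where 26.4%, 33.7% and 36.7% of all genes were called higher, with medians of -0.15, 0.21 and 0.51. In the difference in change over 6 days 10 were higher and 1 lower, where 32% of all genes were called higher and 31.9% lower. Wwp1, a ligase of the Nedd4 class, averaged 97.6 ± 1.6 CPM in Oct1 cKO and 44.8 ± 0.704 CPM in parental cells at day 6 (1.12, adjusted p = 2.38e-20). Usp15, which removes ubiquitin from receptor-regulated Smads, averaged 186 ± 6.68 CPM in Oct1 cKO and 92.3 ± 6.23 CPM in parental cells (1.01, adjusted p = 6.82e-20). Nedd4l, a ligase for activated Smad2 and Smad3, was higher in Oct1 cKO at all 3 days (0.54, 0.71 and 0.98). Smurf2, a ligase that Smad7 brings to TGF-beta receptors, was lower at each day with -0.77, -0.43 and -0.16, and it lies on chromosome 11, whose median was also negative. Its relative Smurf1 was higher at day 6 (0.76, adjusted p = 1.56e-16).

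Of the 4 phosphatases assigned to Smads, 2 were higher and 2 lower at day 6, where 36.7% of all genes were called higher and 37.8% lower, with a median of 0.03. Ctdspl, a small C-terminal domain phosphatase, averaged 131 ± 3.23 CPM in Oct1 cKO and 33.5 ± 0.406 CPM in parental cells (1.96, adjusted p = 8.02e-28). Ppm1a was higher by 0.57, and Ctdsp1 and Ctdsp2 were lower at -0.50 and -0.83. At day 2 Ctdsp1 averaged 8.56 ± 0.131 CPM in Oct1 cKO and 26.2 ± 2.34 CPM in parental cells (-1.61, adjusted p = 5.17e-19).

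Proteins that hold, present or oppose Smads showed few common trends. Of 5 anchors and adaptors measured, 1 was higher and 1 lower in Oct1 cKO at day 0, 2 and 1 at day 2, and 2 and 2 at day 6, where 53.5%, 67.3% and 74.5% of all genes were called in either direction, with medians of 0, -0.02 and 0.01. Zfyve9, also called SARA, which presents Smad2 and Smad3 to the receptor, averaged 14.4 ± 0.671 CPM in Oct1 cKO and 45.6 ± 1.46 CPM in parental cells at day 6 (-1.66, adjusted p = 3.33e-22). Bambi, a decoy receptor that lacks the kinase, was higher in Oct1 cKO at days 0 and 2 (0.41 and 0.78) and lower at day 6, at 11.9 ± 1.61 CPM in Oct1 cKO and 63.8 ± 3.29 CPM in parental cells (-2.42, adjusted p = 2.95e-26). Of 6 corepressors, 1 was higher and 5 lower at day 2, where 33.7% of all genes were called higher and 33.6% lower, with a median of -0.26. Among them was Ski, which binds Smad complexes on DNA, at 203 ± 5.19 CPM in Oct1 cKO and 347 ± 1.28 CPM in parental cells at day 2 (-0.77, adjusted p = 1.45e-18). Tob1, lower at days 0 and 2 (-0.72 and -0.36), lies on chromosome 11, whose medians at these days were -0.38 and -0.37. At days 0 and 6 the corepressors were split, with 2 higher and 2 lower at each. Skil, the close relative of Ski, averaged 79.5 ± 11.3 CPM in Oct1 cKO and 153 ± 4.26 CPM in parental cells at day 0 (-0.95, adjusted p = 1.61e-14).

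Of 6 coactivators and DNA-binding partners, 3 were higher and 1 lower in Oct1 cKO at day 0, 1 and 4 at day 2, and 2 and 3 at day 6, with medians of 0.36, -0.55 and -0.10, where the shares of all genes called were again 53.5%, 67.3% and 74.5%. Foxh1, the forkhead partner of Smad2 and Smad3 in nodal signalling, was higher in Oct1 cKO at days 0 and 2 (0.59 and 0.61) and low in all cells at day 6, with 56 counts over the 3 Oct1 cKO libraries and 7 counts over the 3 parental ones. Zfp423, a zinc finger partner of Smads in BMP responses, averaged 7.35 ± 0.398 CPM in Oct1 cKO and 1.95 ± 0.585 CPM in parental cells at day 0 (1.92, adjusted p = 1.91e-12), and 5.81 ± 1.02 CPM in Oct1 cKO and 17.1 ± 0.413 CPM in parental cells at day 6 (-1.55, adjusted p = 6.26e-16). It was thus higher at day 0 and lower at day 6, as Smad1, Smad3 and Smad6 were. Eomes, a T-box gene whose protein interacts with Smad2 and Smad3, was higher at day 0 (1.42), lower at day 2 (-0.75) and higher at day 6 (2.28). Its day 6 levels were low, with 4.33 CPM in Oct1 cKO and 0.887 CPM in parental cells (216 and 52 counts over 3 libraries each).

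Genes known as targets of Smads did not follow 1 direction. Of 13, 3 were higher and 8 lower in Oct1 cKO at day 0, 5 and 7 at day 2, and 3 and 7 at day 6, where 26.4% and 27%, 33.7% and 33.6%, and 36.7% and 37.8% of all genes were called higher and lower, with medians of -0.45, -0.56 and -0.53. Id3, a direct target of BMP Smads, was higher at day 0 (0.88) and lower at day 6, at 31.5 ± 1.84 CPM in Oct1 cKO and 276 ± 9.83 CPM in parental cells (-3.13, adjusted p = 1.07e-29). Tgfbi, a matrix gene induced by TGF-beta, averaged 28.5 ± 5.24 CPM in Oct1 cKO and 530 ± 17.2 CPM in parental cells at day 6 (-4.21, adjusted p = 8.46e-28). Ccn2, a matricellular gene induced by TGF-beta, was lower at day 0 (-0.57) and higher at day 6, at 191 ± 8.95 CPM in Oct1 cKO and 96.6 ± 5.9 CPM in parental cells (0.98, adjusted p = 6.77e-20). Lefty1, a nodal target and nodal inhibitor, averaged 21.1 ± 2.26 CPM in Oct1 cKO and 107 ± 7.18 CPM in parental cells at day 0 (-2.33, adjusted p = 4.13e-26), and the value at day 2 was -2.34. Tgfbi and the lower fibroblast markers went the same way at day 6, and the part of the markers in these values was not tested.

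**Figure D4:**
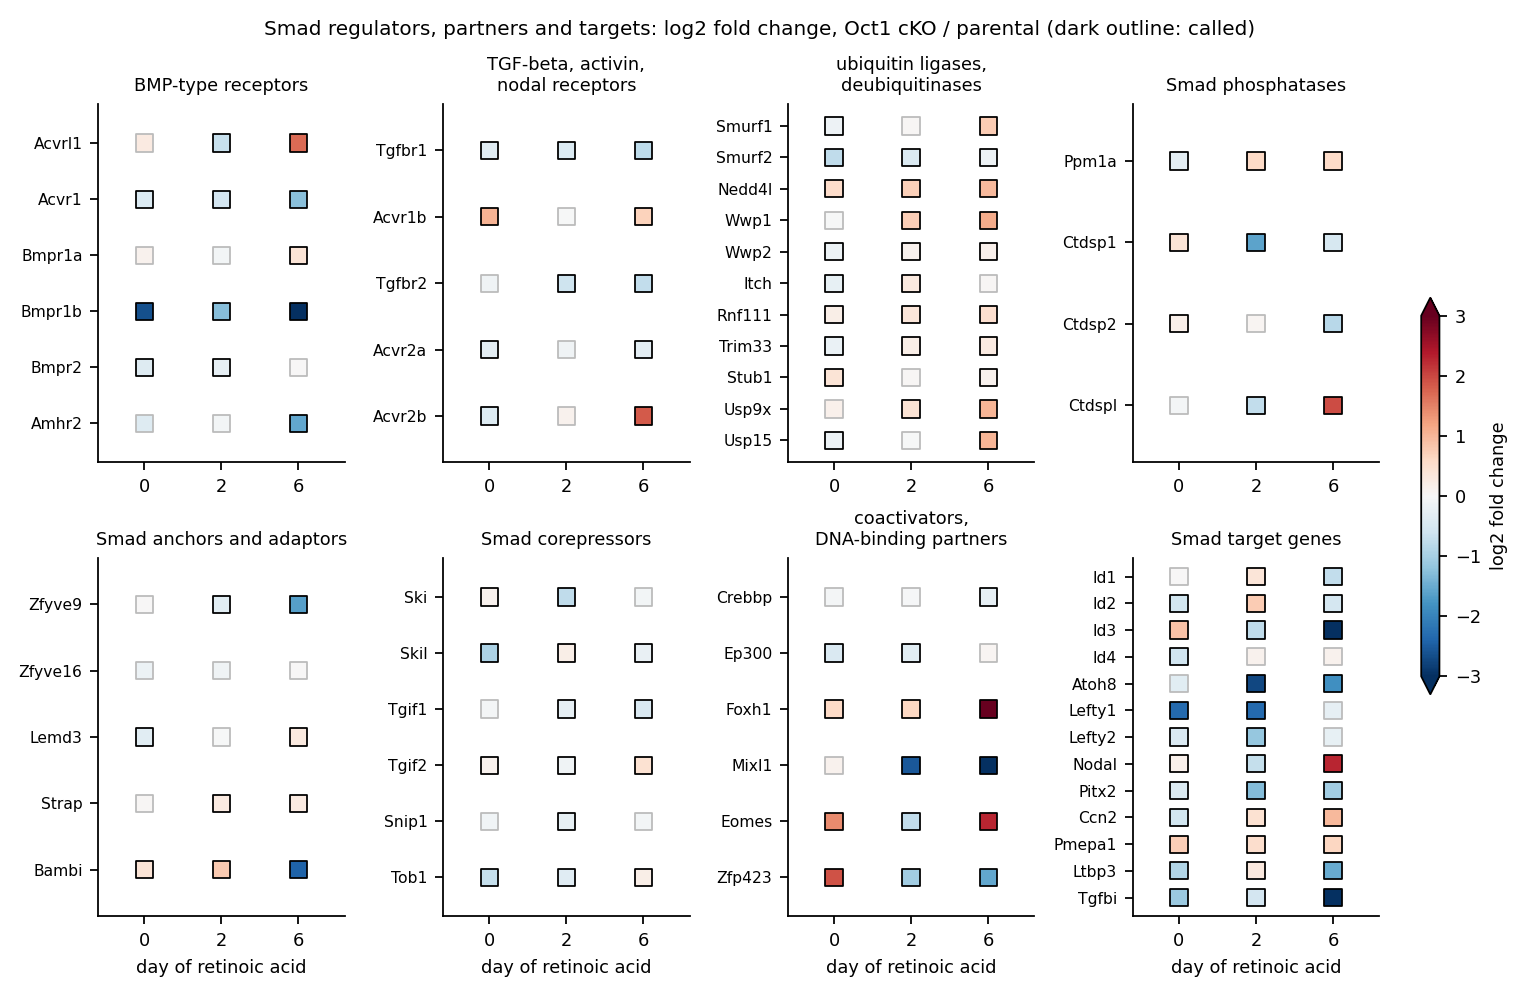
Log2 fold change of Oct1 cKO over parental (colour) for each measured gene of 8 lists of Smad regulators, partners and targets at days 0, 2 and 6, with a dark outline where the adjusted p was under 0.05. In the ubiquitin panel 9 of 11 genes are called higher at day 6, while the receptor and target panels hold both directions.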

How the data were processed

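RNA counts were available for 18 libraries in 6 groups of 3, grouped by the genotype and differentiation day in the labels. The values are raw read counts per gene that the authors deposited for mm10 (GRCm38). The aligner was Novoalign and the later tool DESeq2 1.10.0, per the submitters' processing notes, and the sources used here give neither the read counter, its use of strand nor the gene annotation. Totals of 13694126 to 19296966 counts set the precision, and for the least read member, Smad9, it rests on 9 to 11 counts per Oct1 cKO library at day 0. Genes passing edgeR's filter (minimum count 10, minimum total 15) were scaled by TMM and fitted over all 18 libraries with edgeR 4.0.16 (R 4.3.3, quasi-likelihood test, prior count 2 for log2 CPM), with Benjamini-Hochberg adjustment over 18352 genes, a threshold of 0.05 and 12 comparisons. Levels per kilobase divide CPM by the exon length in GENCODE. On simulated data for Oct1 cKO against parental at day 0, 31.3% of genes changed 1.5-fold, 97% of those changed 2-fold and 98.5% of those changed 3-fold were recovered, with 6 false calls among 157. The simulation gave all genes 1 fixed dispersion and changed 67, 67 and 66 genes by these folds, with no other difference between groups. In the real counts 53.5% of genes were called at day 0, so these rates check the code and do not describe the error of the results above.

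The alternatives were DESeq2 size factors, library sizes alone, TMM without chromosome 11, no filter on low counts, DESeq2 1.42.0, fits of only the libraries compared, and leaving out each library. The members, marker lists and regulator lists were chosen with earlier results of these data known. Named genes are the 8 members, Pou2f1, up to 4 genes per regulator list with the smallest adjusted p in each genotype comparison, and the 3 genes most like each member by Pearson correlation of log2 CPM (mean of at least 1), of which some are printed. Genes named Gm plus digits or with names ending in Rik were left out of the search for like genes. Acvr1c and Hgs were not analysed here. Of the list of target genes, 1 gene is not reported here.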

Additional observations from a re-analysis of the deposited data

Results flagged for a closer look

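For 17 member results the change over time differed between Oct1 cKO and parental cells by a test of the difference itself (edgeR quasi-likelihood test with Benjamini-Hochberg adjustment), given here as the log2 change in Oct1 cKO minus that in parental cells. From day 0 to day 2 the difference was -1.36 for Smad1 (adjusted p = 6.29e-12), -1.41 for Smad3 (8.8e-14), -0.86 for Smad6 (7.18e-05), -0.58 for Smad5 (1.43e-07) and -0.55 for Smad7 (1.27e-05), and it was 0.51 for Smad2 (2.72e-07). From day 2 to day 6 it was -2.48 for Smad9 (adjusted p = 1.25e-07), -1.62 for Smad6 (4.29e-13), -0.53 for Smad3 (2.66e-06) and -0.47 for Smad5 (7.37e-07), and it was 0.37 for Smad7 (0.00226). Over 6 days it was -2.92 for Smad9 (adjusted p = 3.9e-08), -2.48 for Smad6 (6.3e-15), -1.95 for Smad3 (4.97e-19), -1.61 for Smad1 (2.27e-15) and -1.05 for Smad5 (1.34e-14), and it was 0.66 for Smad2 (4.63e-10). Smad1 and Smad6 changed in opposite directions in the genotypes, Smad1 by day 2 and Smad6 after it. Differences of this kind were called for 57%, 63.5% and 63.9% of all genes over the 3 spans, which share the libraries of their common days.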

How the results depend on the processing

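Of 96 member results, 72 kept their call and sign under all 24 alternative settings, 18 changed call under at least 1, and 8 changed sign where neither setting made a call. Library sizes with no scaling factor moved the most: the median of all genes shifted by -0.19 and -0.20 for Oct1 cKO against parental at days 2 and 6, by 0.34 for day 2 against day 0 in parental cells, and by -0.18 and -0.19 for the genotype differences in change from day 0 to days 2 and 6. Under it Smad4 was -0.12 at day 2 (adjusted p = 0.0378) and -0.12 at day 6 (0.0268), Smad2 for day 6 against day 2 in parental cells was -0.03 (0.627), and 8 members were called at day 2 in place of 5. It also gave 4263 genes higher and 8187 lower at day 2 in place of 6187 and 6172, 5241 and 8414 at day 6 in place of 6740 and 6940, 10130 and 4589 for day 2 against day 0 in parental cells in place of 7924 and 6913, and 4094 and 6317 for the genotype difference in that change in place of 5526 and 4937. Leaving out each library gave 4 to 6 members called at day 0, 5 to 6 at day 2 and 7 to 8 at day 6. Smad9 in Oct1 cKO, at 9 to 21 counts per library, is limited by depth, and small changes of Smad2 and Smad4 are within reach of the scaling. The replicate numbers printed here follow the order of the samples in each group and are not in the labels. No paired analysis was possible because the labels give no replicate numbers that could link libraries across groups.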
